A study of Mus musculus with 28 samples.

Results

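The 44 genes described here are immediate early and dissociation-stress genes, chosen by name under a rule that uses no measured value, and read from the 55536 genes of the count tables. By role they are 9 AP-1 and related bZIP factors (Fos, Fosb, Fosl1, Fosl2, Jun, Junb, Jund, Atf3, Maff), 11 other transcription factors of the EGR, NR4A and KLF families with Myc and Csrnp1, 10 feedback inhibitors (Dusp1, Dusp2, Dusp5, Dusp6, Zfp36, Zc3h12a, Socs3, Nfkbia, Nfkbiz, Ppp1r15a) and 7 growth-arrest and other early response genes (Ier2, Ier3, Ier5, Btg2, Gadd45b, Gadd45g, Rhob). The other 7 are the heat shock genes Hspa1a, Hspa1b and Dnajb1, the glucocorticoid-responsive Sgk1 and Per1, and the secreted matricellular genes Ccn1 and Ccn2. Of the 44 genes, 43 had enough counts to be tested.

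The libraries are poly(A) RNA-seq of interfollicular epidermis (IFE), the sheet of keratinocytes between hair follicles, from mice in which a tamoxifen-activated Cre marks basal cells. There were 28 libraries in 12 groups: labelled cells and total IFE, each from back skin of the Slc1a3 and Aspm lines (n = 3 per group) and the K14 line (n = 2), and from tail skin of the Slc1a3, Aspm and Dlx1 lines (n = 2). All mice were wild type apart from a RosatdTomato reporter, a red fluorescent protein gene switched on by Cre, combined with Slc1a3CreER, AspmCreER, K14CreER or Dlx1CreER, so the labelled cells are those in which that gene's regulatory sequence drove Cre, with their descendants. All mice, whatever the group, received tamoxifen at 100 µg/ml on 5 consecutive days (postnatal days 30 to 34) and were harvested 2 weeks later, on postnatal day 49, with hair follicles at rest (telogen).

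The labels do not say how the skin was dissociated or the cells sorted, whether total IFE still held the labelled cells, or whether replicates were separate animals, and the p-values below measure the spread between these libraries, which may be in part technical. A labelled and a total library of the same line, site and replicate number are called a pair, and there were 14 pairs.

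Immediate early genes are transcribed within minutes of a stimulus from factors already present in the cell, without new protein synthesis. Growth factor, stress kinase and calcium signals reach SRF, CREB and AP-1 at their promoters, and the products include both transcription factors and the phosphatases, RNA decay factors and cytokine inhibitors that shut the response off. Because enzymatic dissociation and sorting of skin induce many of these genes before RNA is extracted, their level in purified keratinocytes can reflect the living tissue, the handling or both.

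Library totals ran from 7738262 to 37670589 counts (median 20193387.5). Basal keratinocyte markers (Krt5, Krt14, Krt15, Itga6, Col17a1) summed to 53320 to 117200 CPM (counts scaled to a common effective library size) in every library. The tissue thus matched its defining genes in both populations. Suprabasal markers (Krt1, Krt10, Krtdap, Sbsn, Lor) summed to 7118 to 14740 CPM in back and 6634 to 12380 CPM in tail libraries. They were higher in labelled libraries, without overlap, in back K14 and the tail lines (in tail Slc1a3, 10550 to 10630 against 7757 to 8172 CPM). In back Slc1a3 and back Aspm they overlapped, and basal sums separated the same way in the tail lines only. Their part in the differences below was not tested. Neutrophil markers summed to at most 8.09 CPM, blood markers to at most 15.9 and muscle markers to at most 4.47. Other immune markers were higher. Markers of Langerhans cells and other macrophages summed to 13.5 to 142.7 CPM in back and 3.17 to 28.6 CPM in tail libraries. T cell markers, mostly Thy1, summed to 22.6 to 133.4 CPM in back and 14.9 to 154 CPM in tail libraries. Melanocyte markers reached 28.73 CPM and endothelial markers 28.67 CPM. The part of these cells in the results was not tested. The 6 fibroblast markers, all detected, summed to 0.968 to 14.7 CPM in back and 21.9 to 39.2 CPM in tail libraries, mostly Dcn in tail (13.2 to 32.8 CPM), with Lum at 0 in some groups of both sites. The library of back Slc1a3 total replicate 4 stood apart: it held the fewest counts, 14436 genes against at least 18375 in any other, and 0.208% mitochondrial counts against 0.974% to 2.32%. It was also the highest library for Ier5 (37.5 CPM), Ier2 (137 CPM), Hspa1a (80.4 CPM), Hspa1b (262 CPM), Nfkbia (422 CPM) and Nfkbiz (110 CPM). The same held for Zc3h12a (50.3 CPM), Ccn1 (63.0 CPM), Maff (23.6 CPM), Nr4a2 (4.85 CPM) and Fosl1 (4.21 CPM). It was the lowest for Klf4 (316 CPM), Csrnp1 (6.13 CPM) and Gadd45g (0 counts). The calls that were lost without it are named with the results.

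Promoters of 4 of the genes are printed here because the same genes carry results below on pairs, lines and sites. They are the 250 bases before the RefSeq start, 5′ to 3′ on the gene's strand, build GRCm38.p6, and capitals mark the TATA box motif TATAAA and the motif TGACG (or CGTCA, its other strand), the core of the cAMP response element bound by CREB and ATF factors. Fos (chr12:85473640-85473889, plus strand), the partner of Jun in AP-1, holds 2 such cores and a TATA motif. Nr4a1 (chr15:101266596-101266845, plus strand), an orphan nuclear receptor, holds 4 cores. Dusp1 (chr17:26508473-26508722, minus strand), a phosphatase of stress-activated MAP kinases, holds 3 cores, of which 2 overlap as the full palindrome TGACGTCA. Ccn1 (chr3:145649986-145650235, minus strand), a secreted matricellular protein, holds 1 core and a TATA motif.
Fos: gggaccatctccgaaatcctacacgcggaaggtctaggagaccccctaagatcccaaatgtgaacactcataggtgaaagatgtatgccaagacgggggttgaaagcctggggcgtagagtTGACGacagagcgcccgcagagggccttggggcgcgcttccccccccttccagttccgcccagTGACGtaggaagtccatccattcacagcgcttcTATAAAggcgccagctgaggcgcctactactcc
Nr4a1: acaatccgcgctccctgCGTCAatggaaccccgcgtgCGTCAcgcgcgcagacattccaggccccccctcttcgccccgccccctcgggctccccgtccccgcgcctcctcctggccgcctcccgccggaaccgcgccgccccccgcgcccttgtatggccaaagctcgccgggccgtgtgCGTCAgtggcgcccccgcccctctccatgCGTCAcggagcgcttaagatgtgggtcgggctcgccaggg
Dusp1: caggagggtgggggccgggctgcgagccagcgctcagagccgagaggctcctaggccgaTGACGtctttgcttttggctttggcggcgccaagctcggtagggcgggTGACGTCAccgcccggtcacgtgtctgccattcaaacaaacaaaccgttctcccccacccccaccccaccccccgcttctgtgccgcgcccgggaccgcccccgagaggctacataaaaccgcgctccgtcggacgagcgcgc
Ccn1: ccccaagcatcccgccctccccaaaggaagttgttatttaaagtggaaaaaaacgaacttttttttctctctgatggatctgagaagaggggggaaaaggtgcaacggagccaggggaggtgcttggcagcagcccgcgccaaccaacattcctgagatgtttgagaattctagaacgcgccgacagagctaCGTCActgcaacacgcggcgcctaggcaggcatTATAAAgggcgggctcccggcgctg

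RefSeq promoters, 250 bases before to 50 after the start, matched 37 of the 44 genes (53 promoters). On either strand, TGACG stood in 54.7% of the members' promoters (29 promoters, 22 genes) and in 20.8% of all 32851 promoters. The full TGACGTCA was in 7.55% against 1.79% (Dusp1, Btg2, Maff, Ppp1r15a), every such match also counting as TGACG. The CArG box of SRF was in 11.3% (Egr2, Dusp5, Zfp36) against 1.63%, TATAAA in 18.9% against 13.6%, and the AP-1 site TGANTCA in 1.89% against 7.81%. The heat shock element was in 0% of the members' promoters and 0.603% of all. These are shares of letters in 1 window, not matched for base composition.

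Levels of the genes relative to each other were compared as CPM per kb of exonic length. In back total IFE the highest means were those of Nfkbia (181 CPM per kb), which encodes the inhibitor holding NF-kB in the cytoplasm, and Klf4 (159 CPM per kb), a zinc finger factor of epidermal differentiation. In tail total IFE the order was Klf4 (199 CPM per kb), Nfkbia (91.5 CPM per kb) and Hspa1b (80.2 CPM per kb). The lowest tested members in back total IFE were Dusp2, Egr2 and Nr4a3, at 0.106, 0.118 and 0.139 CPM per kb. Jund was not measurable: it had 1 count over all 28 libraries, and 52.6% of its exonic length is overlapped by the gene model Gm11175, which had 0 counts. Counts of the near-identical copies Hspa1a and Hspa1b are uncertain relative to each other. Since the libraries carry no strand, Fosl1 and Ccn2 share reads with neighbours in principle. For Fosl1, 57.2% of exons are overlapped by Ccdc85b, which had 25537 counts against 333 for Fosl1, so Fosl1 values are uncertain throughout. For Ccn2 the share is 23.2%, by Gm15270, with 65 counts against 16941.

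The genes differed widely in how much they varied from library to library. Over all 28 libraries the highest CPM was 105 times the lowest for Ccn2, 25.5 times for Atf3, 23.5 for Dusp1, 21.9 for Fosb, 16.8 for Fos and 14 for Ier3, an early response protein of survival signalling. At the other end were Hspa1b (181 to 262 CPM, 1.45 times), Dnajb1 (139 to 250 CPM, 1.79 times), a stress-inducible HSP70 and its HSP40 partner, and Hspa1a (38.4 to 80.4 CPM, median 44.8, 2.10 times). These 3 heat shock genes had the smallest fold ranges of the members detected in every library. Within groups, the median SD of log2 CPM was 0.378 for the 43 members and 0.386 for all 17493 genes tested. Above a mean log2 CPM of 2 the order was reversed, at 0.311 for 36 members and 0.247 for 10376 genes.

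**Figure D1:**
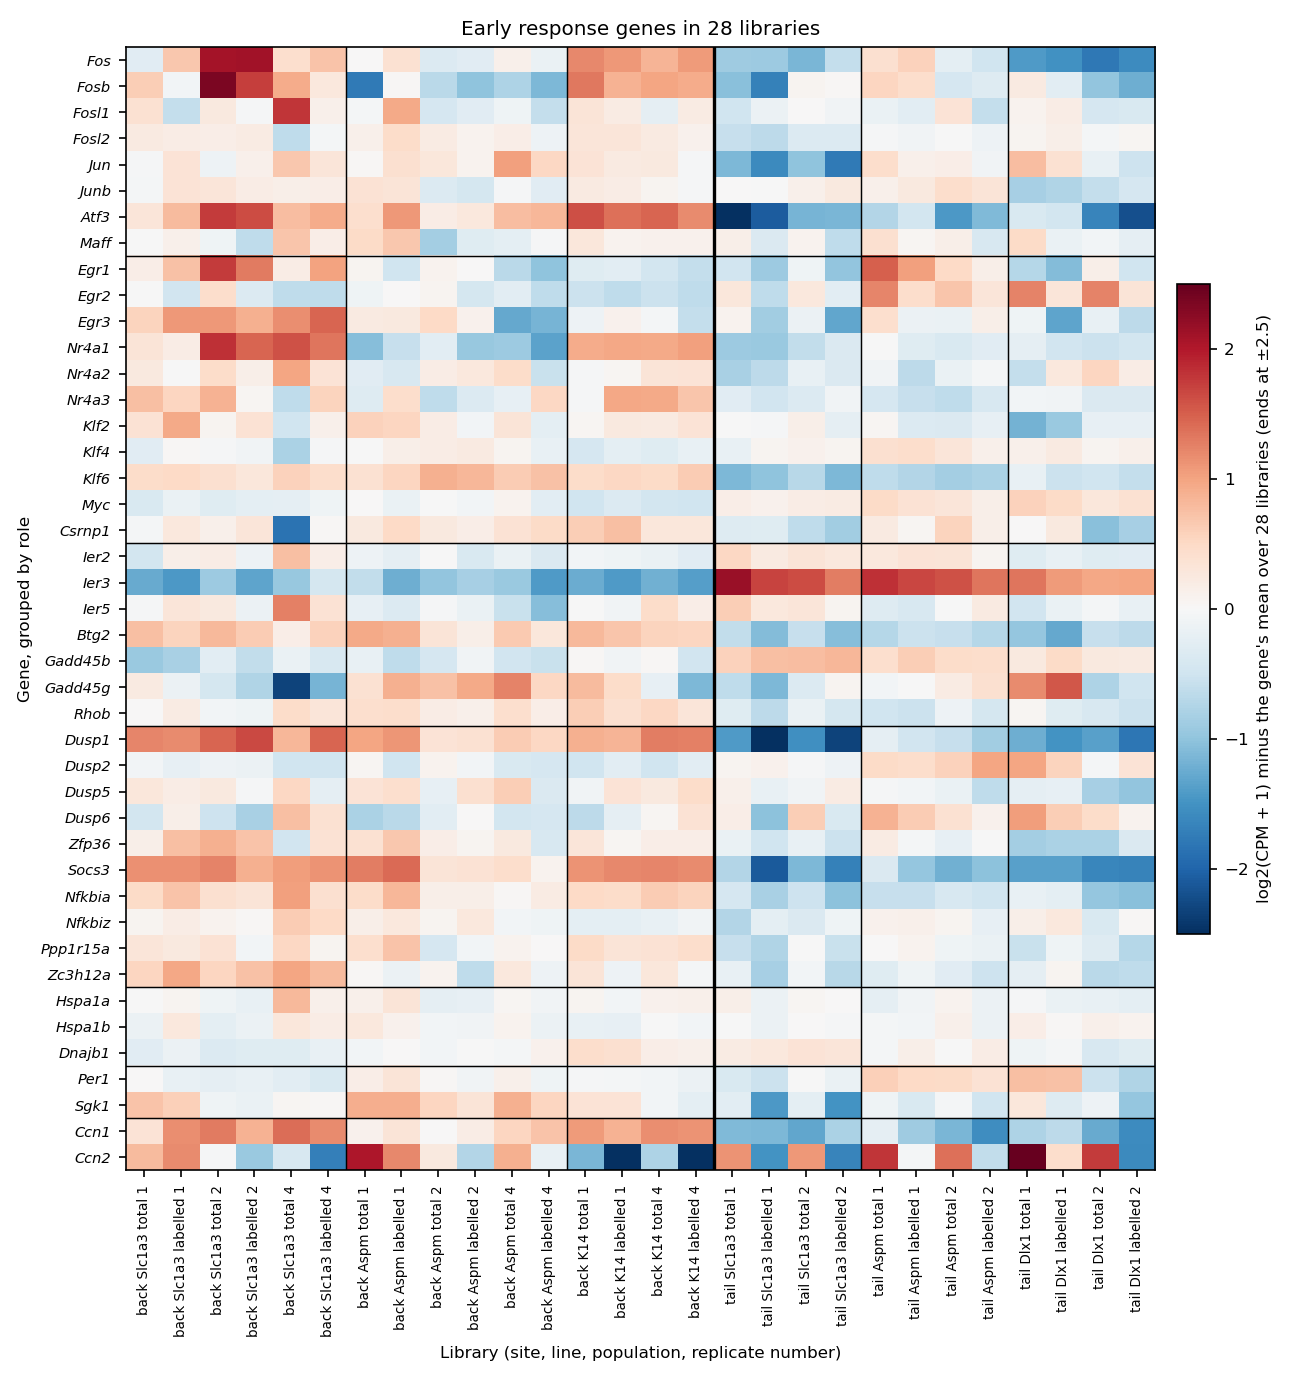
Colour gives log2(CPM + 1) minus the gene's mean over the 28 libraries for the 43 tested genes (rows, grouped by role) in each library (columns, by site, line and pair; the colour scale ends at ±2.5). Ier3 is red in tail and blue in back columns, Dusp1, Socs3 and Atf3 run the other way, and Fos and Fosb are deepest red in both libraries of back Slc1a3 replicate 2.

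Fos, the prototype of the family, is an example of that library-to-library spread, though not the widest. In back Slc1a3 it was 22.5, 119 and 37.3 CPM in total and 44.4, 122 and 45.9 CPM in labelled libraries of replicates 1, 2 and 4. Replicate 2 stood far above the others in both populations, and labelled and total values overlapped. In back Aspm Fos was 27.7, 21.5 and 30.4 CPM in total and 36.1, 22.6 and 24.5 CPM in labelled libraries, and in back K14 65.0 and 50.7 against 59.6 and 58.6 CPM. In tail it was 14.4 and 11.9 against 14.2 and 17.9 CPM in Slc1a3, 36.8 and 23.2 against 41.6 and 19.3 CPM in Aspm, and 9.71 and 7.27 against 9.003 and 8.58 CPM in Dlx1. Labelled and total values overlapped in all 6 combinations of line and site, and no Fos difference between them passed the test (edgeR quasi-likelihood test, Benjamini-Hochberg adjusted over all genes tested and passed under 0.05; every adjusted p was 0.949 or more).

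Whether the labelled and total library of a pair moved together was asked gene by gene, from the deviation of each library's log2 CPM from its group mean over the 14 pairs, which hold 8 independent differences. The median Pearson r was 0.616 for the 43 members and 0.319 for all genes tested, and 0.634 against 0.448 above a mean log2 CPM of 2. Of the 43 members, 41 had a positive r and 28 an r over 0.5. Of all 17493 genes tested, 13336 had a positive r and 5738 an r over 0.5. In an exact permutation test over all re-pairings within line and site, 12 of 43 members (27.9%) had an unadjusted p under 0.05 for Pearson r, against 12.9% of all genes. None passed the adjusted threshold, among the members or among all genes (0% called, smallest adjusted p of a member 0.227), and 0.00174 is the smallest p this design can give.

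The members with the tightest pairs came from several roles. Ccn2 had r = 0.935 and Spearman rho = 0.930 (exact permutation p = 0.00174 and adjusted p = 0.227, two-sided, 14 pairs), and r = 0.934 without the 2 pairs farthest from the median. Dnajb1 had r = 0.919 and rho = 0.903 (exact permutation p = 0.00174, adjusted p = 0.227), and 0.873 without those 2 pairs. Sgk1, a kinase induced by glucocorticoid and serum, had r = 0.928 and rho = 0.881 (exact permutation p = 0.00694, adjusted p = 0.267), and 0.912 without 2 pairs. Atf3, a stress-induced bZIP repressor, had r = 0.900 and rho = 0.930 (exact permutation p = 0.00868, adjusted p = 0.272), and 0.898 without 2 pairs. These 4 relations did not rest on the outermost pairs, whereas Per1, a clock gene also induced by glucocorticoid, went from r = 0.957 to 0.724 and Fos from 0.831 to 0.654 when 2 pairs were left out (exact permutation p = 0.0295 and 0.0677, adjusted p = 0.331 and 0.402). Per1 in tail Dlx1 was 293 and 104 CPM in labelled and 297 and 120 CPM in total libraries of replicates 1 and 2, so both populations of replicate 1 were high together.

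Egr1, a zinc finger factor induced through SRF, moved together in pairs with r = 0.780 and rho = 0.754 (exact permutation p = 0.0174, adjusted p = 0.314). Other named genes had lower values with no adjusted p under 0.05 in the same exact permutation test: r was 0.689 for Jun, 0.675 for Nr4a1, 0.665 for Dusp1, 0.590 for Socs3, 0.382 for Ier3 and 0.332 for Zfp36. For Nr4a1 the value dropped to 0.195, and for Socs3 to 0.220, without the 2 farthest pairs. At the lower end stood Klf4 (r = 0.093), Nr4a3 (0.039), Dusp5 (-0.024) and Ier2 (-0.046). By role, the median r was 0.942 for Sgk1 and Per1, 0.73 for Ccn1 and Ccn2, 0.728 for the 8 tested AP-1 genes, 0.605 for the 10 feedback inhibitors, 0.546 for the growth-arrest group, 0.527 for the heat shock genes and 0.526 for the EGR, NR4A, KLF and Myc group.

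**Figure D2:**
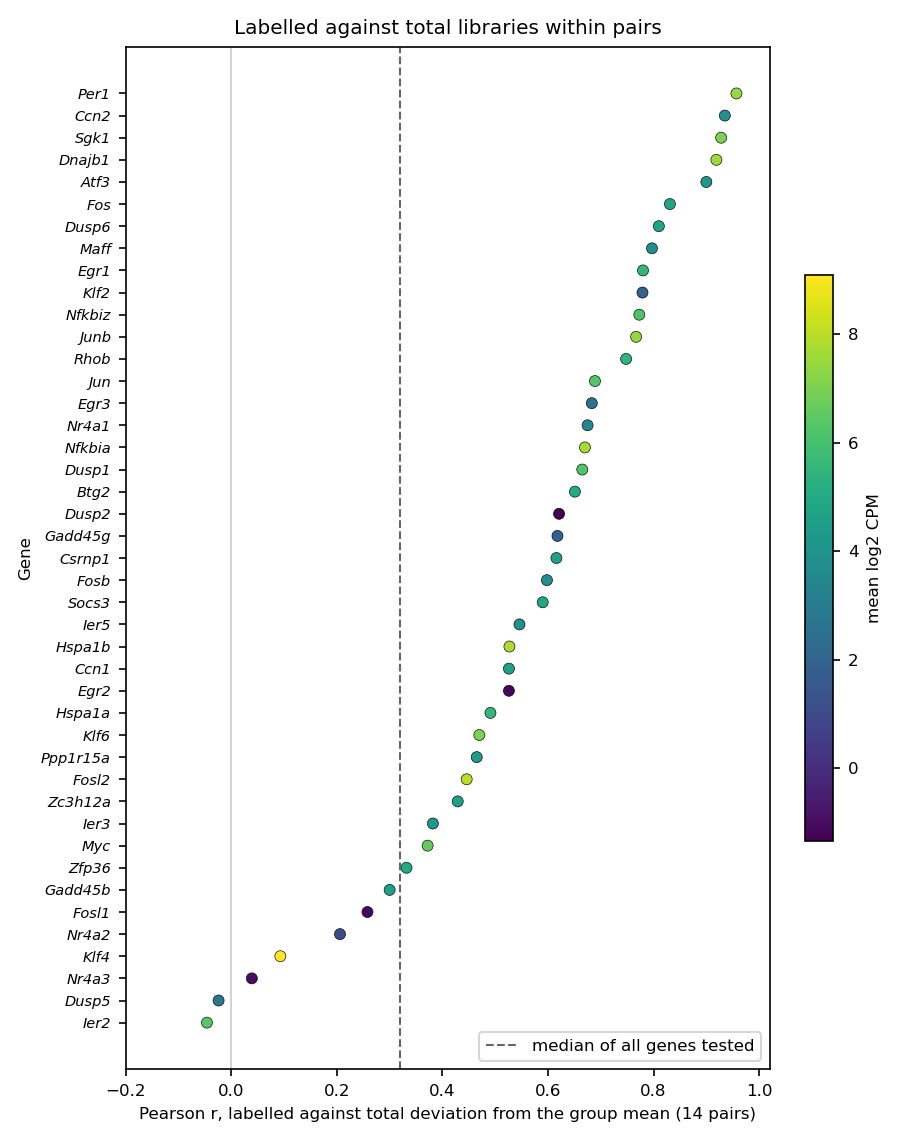
Pearson r between the labelled and the total deviation from the group mean over 14 pairs (x axis) for each of the 43 tested genes (y axis, ordered by r), coloured by mean log2 CPM. The dashed line is the median of all genes tested (0.319); Per1, Ccn2, Sgk1, Dnajb1 and Atf3 lie at or above 0.900, and Ier2 and Dusp5 lie just below 0.

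Seen pair by pair, across the 36 members above a mean log2 CPM of 2 the labelled and total deviations of a pair correlated with r between 0.467 and 0.854 in the 14 pairs; across all genes above that level the range was 0.180 to 0.689. The members' r was the higher of the 2 in every pair except back Aspm replicate 1 (0.467 against 0.684) and replicate 2 (0.629 against 0.689). These are correlations across genes, which are not independent replicates, and the 2 libraries of a group of 2 mirror each other. Libraries with the same number from another line or site gave r from -0.262 to 0.379 across all genes (median 0.0451), against a median of 0.436 for the 14 pairs. The pairs of back Slc1a3 (0.180 to 0.216), back K14 (0.362) and tail Aspm (0.321) lay within that range. For them these values do not show that the number ties the libraries. The replicate with the highest CPM was the same in both populations for 28 of 43 members in back Slc1a3 (65.1%, against 39.3% of all genes tested), 26 in back Aspm (60.5% against 53.5%), 31 in back K14 (72.1% against 61.3%), 29 in tail Slc1a3 (67.4% against 64.2%), 28 in tail Aspm (65.1% against 57%) and 34 in tail Dlx1 (79.1% against 69.5%).

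The genes that were high together were not the same in every pair. In back Slc1a3, replicate 2 was highest in both populations for Fos, Fosb, Egr1, Egr2, Atf3, Dusp1, Nr4a1, Btg2 and Csrnp1. Replicate 1 of that line was highest in both for Klf2, Dnajb1, Per1, Gadd45g, Sgk1 and Ccn2, and replicate 4 for 13 other members. The total library of replicate 4 is the one that stood apart, and those 13 are among the 28 members counted above for back Slc1a3. Fosl1 in that pair was 4.21 CPM in the total and only 0.649 CPM in the labelled library. Atf3 there was 24.7, 68.5 and 34.6 CPM in total and 34.9, 63.3 and 38.7 CPM in labelled libraries of replicates 1, 2 and 4. Sgk1 was 218, 122 and 137 CPM in total and 200, 117 and 134 CPM in labelled libraries of the same replicates. Fos, Fosb, Atf3, Egr1, Egr2 and Nr4a1 thus peaked in one pair and Sgk1 and Per1 in another, while the AP-1 genes Fosl1 and Maff and the factor Egr3 peaked in replicate 4, and Jun, Junb and Fosl2 did not peak in the same replicate of both populations. In tail Dlx1, replicate 1 was highest in both populations for 29 of the 43 members, Atf3 among them (14.9 and 5.61 CPM in total, 14.2 and 3.53 CPM in labelled libraries of replicates 1 and 2). The same replicate, 1 or 2, was highest in both populations there for 69.5% of all genes tested. How many of all genes peaked in a given replicate was not counted, in this line or in back Slc1a3.

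**Figure D3:**
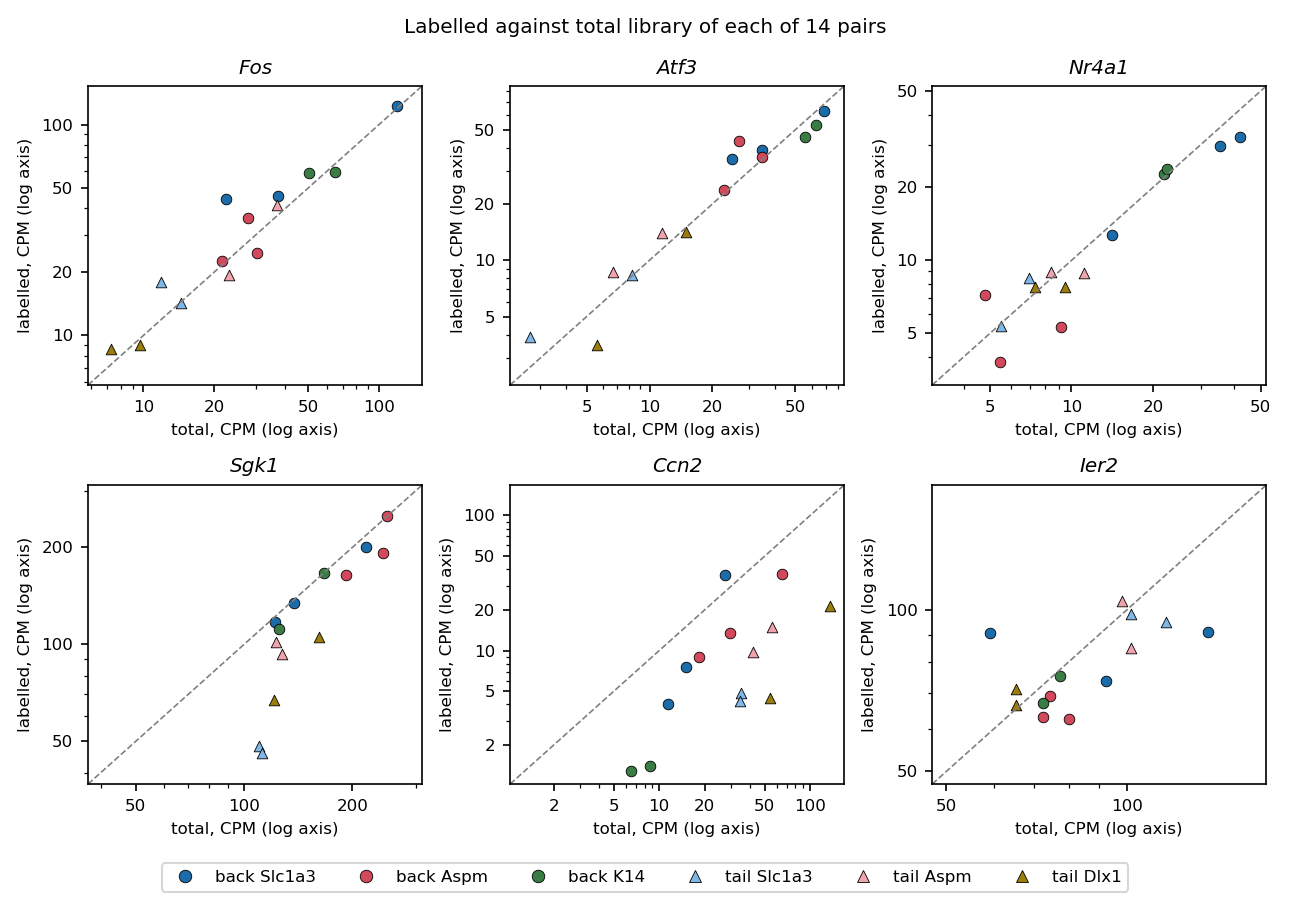
CPM in the labelled (y axis, log scale) against the total library (x axis, log scale) of each of the 14 pairs for 6 genes; colour gives line and site, circles back and triangles tail, and the dashed line marks equal values. Fos and Atf3 follow the line, 13 of 14 pairs of Sgk1 and of Ccn2 lie below it, and the points of Ier2 follow no line within groups (r = -0.046).

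Labelled cells were next compared with total IFE within each line and site, where total IFE may still have held labelled cells. Of the 43 members, 1 passed in tail Slc1a3, where 0.514% of all genes tested did, and 0 passed in back Slc1a3 (0.109% of all genes), back Aspm (0%), back K14 (0.00572%), tail Aspm (0.00572%) and tail Dlx1 (0%). At an unadjusted p under 0.05 in edgeR's quasi-likelihood test, the members counted 0, 1, 2, 7, 1 and 2 in back Slc1a3, back Aspm, back K14, tail Slc1a3, tail Aspm and tail Dlx1. All 17493 genes tested counted 988, 382, 376, 1004, 423 and 446. DESeq2 called 2 members in tail Slc1a3 (Dusp1 and Sgk1) and 0 elsewhere, and limma-voom 0 throughout. Of all genes in tail Slc1a3 they called 191 and 52. The members' median log2 differences were -0.05, -0.05, -0.05, -0.17, -0.12 and -0.07 in that order, against 0.03, 0.01, 0, 0, -0.01 and 0 for all genes. In tail Slc1a3, leaving out any 1 of the 4 libraries left 0 members called; without back Slc1a3 total replicate 4 the count was 2.

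Sgk1 was the member that passed. In tail Slc1a3 it was 48.4 and 46.1 CPM in labelled and 110 and 112 CPM in total libraries, with no overlap, a log2 difference of -1.23 (SE 0.29, edgeR adjusted p = 0.0490). With the pair as a block the difference was -1.23 (SE 0.11), and Sgk1 also passed in tail Dlx1 (-0.73, edgeR adjusted p = 0.00451), where it was 106 and 67.0 CPM in labelled and 161 and 121 CPM in total libraries. It was lower in the labelled library of 13 of 14 pairs. In tail Aspm it was 102 and 93.3 against 122.5 and 128 CPM, without overlap and without passing. In back skin labelled and total values overlapped: 200, 117 and 134 CPM against 218, 122 and 137 CPM in Slc1a3, 249.5, 164 and 191 against 249.8, 192 and 244 CPM in Aspm, and 167 and 112 against 167 and 125 CPM in K14. The difference between tail and back Slc1a3 in this contrast was -1.15 (SE 0.36) and did not pass (edgeR interaction, adjusted p = 0.652).

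Ccn2, a secreted matricellular protein and a standard target of YAP and SRF, was singled out after its values were seen. In tail Slc1a3 it was 4.83 and 4.21 CPM in labelled and 34.8 and 34.1 CPM in total libraries, in tail Aspm 14.99 and 9.82 against 55.9 and 41.7 CPM, and in tail Dlx1 21.3 and 4.47 against 134.5 and 54.3 CPM. In back K14 it was 1.29 and 1.41 against 6.49 and 8.70 CPM. Labelled and total libraries did not overlap in any of those 4 comparisons. In back Slc1a3 they did, at 36.1, 7.6 and 4.05 against 27.4, 15.2 and 11.5 CPM, as in back Aspm, at 36.9, 8.91 and 13.5 against 65.6, 18.5 and 29.4 CPM. Ccn2 was lower in the labelled library of 13 of 14 pairs. Without the pair, in the fit to all groups with the low-count filter, no difference passed, the largest being -2.93 in tail Slc1a3 (edgeR adjusted p = 0.356). Unpaired fits that did call Ccn2 were the one without the filter, in every comparison except back Slc1a3, and the one restricted to the compared groups, in tail Slc1a3 and tail Aspm. With the pair as a block it passed in back K14 (-2.46, SE 0.38, edgeR adjusted p = 0.0131), tail Aspm (-1.99, adjusted p = 0.0329) and tail Dlx1 (-3.11, adjusted p = 0.000336), and in tail Slc1a3 (-2.93, SE 0.34).

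The pair block raised the members called to 5 in tail Slc1a3 (1.49% of all genes), 2 in tail Dlx1 (0.463%) and 1 each in back K14 (0.103%) and tail Aspm (0.0343%), with 0 in back Slc1a3 (0.354%) and back Aspm (0%). The 5 in tail Slc1a3 were all lower in labelled cells: Sgk1, Ccn2, Dusp1 (-1.12, edgeR adjusted p = 0.000998), the ERK phosphatase Dusp6 (-1.13, adjusted p = 0.00546) and Socs3 (-1.05, adjusted p = 0.0234), an inhibitor of JAK-STAT signalling. Dusp1 there was 10.2 and 14.4 CPM in labelled against 27.5 and 25.5 CPM in total libraries, and Socs3 6.23 and 8.55 against 17.6 and 13.3 CPM, neither overlapping. Over all pairs, Fosb, Egr2, Btg2, Hspa1b, Per1 and Rhob were lower in the labelled library of 12 of 14, and Dnajb1 higher in 11. These counts have no test of their own. Endothelial markers (5 of 5 detected) summed to 6.61 to 18.3 CPM in tail Dlx1 total and 1.80 to 2.10 CPM in labelled libraries, and fibroblast markers to 23.4 to 25.3 against 21.9 to 24.1 CPM; in tail Slc1a3 they were 1.22 to 1.86 against 1.96 to 2.10 CPM and 28.9 to 35.5 against 38.5 to 39.2 CPM. In these bulk libraries, fewer cells of a type and less RNA per cell cannot be told apart.

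None of the 8 tests of whether the labelled minus total difference itself varied by line or site called a member (edgeR interaction). Of all genes, 0% were called in 5 of the tests. The others called 0.0915%, 0.0400% and 0.0229%, for tail minus back in Slc1a3, Slc1a3 minus Aspm in tail and Slc1a3 minus Dlx1 in tail. An unadjusted p under 0.05 in this edgeR test was reached by at most 6 of 43 members. That was for tail minus back in Slc1a3, where 756 of 17493 genes reached it. The lowest adjusted p was for Dusp1 in Slc1a3, whose labelled minus total difference in tail less that in back was -1.36 (SE 0.35, edgeR adjusted p = 0.252).

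Lines were compared separately in labelled and total libraries of each site, with an F test that 3 group means are equal. In back total IFE 4 of 43 members differed among the Slc1a3, Aspm and K14 lines, against 3.57% of all genes, in back labelled cells 3 (1.52%), in tail total IFE 0 (0.171%) and in tail labelled cells 2 (2.21%). In tail total IFE 11 members had an unadjusted p under 0.05 in edgeR's test, DESeq2 called 5 and limma-voom 1. Of all 17493 genes these were 2228, 617 and 122. Without back Slc1a3 total replicate 4, which enters the shared spread, the member counts were 3 in back total and 4 in back labelled libraries. They were 4 in tail total and 5 in tail labelled libraries. Of 17416 genes tested in that fit, 443, 832, 462 and 1068 passed in the same order. So few members passed that the counts are a description, and single genes carry each comparison.

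Nr4a1 differed among back lines in both populations (edgeR F test, adjusted p = 0.00876 in total and 0.00613 in labelled libraries). In total libraries it was 14.1, 42.0 and 35.5 CPM in Slc1a3, 4.77, 9.11 and 5.45 CPM in Aspm, and 22.0 and 22.5 CPM in K14. In labelled libraries it was 12.7, 32.4 and 29.7 CPM in Slc1a3, 7.18, 5.30 and 3.82 CPM in Aspm, and 22.7 and 23.8 CPM in K14. Every Aspm library lay below every Slc1a3 and K14 library. Slc1a3 minus Aspm was 2.25 on the log2 scale in total (SE 0.37, edgeR adjusted p = 0.0403) and 2.20 in labelled libraries (adjusted p = 0.00779), Aspm minus K14 was -1.80 (adjusted p = 0.0823) and -2.10 (adjusted p = 0.0180), and Slc1a3 and K14 overlapped. In tail, where the Aspm line had 8.38 to 11.1 CPM, this order was not seen: all 12 tail libraries lay between 5.35 and 11.1 CPM.

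Fosb, an AP-1 partner chosen here like Myc, Dnajb1 and Zc3h12a after its values were seen, followed Nr4a1 in back total libraries (edgeR F test, adjusted p = 0.0426): 22.5, 77.6 and 28.5 CPM in Slc1a3, 3.55, 8.67 and 8.07 CPM in Aspm, and 37.7 and 29.6 CPM in K14. The Aspm libraries were again the lowest, but no pair of lines passed for Fosb and the call was lost in 11 of 16 alternatives, among them the fit without back Slc1a3 total replicate 4. Egr1 in labelled back libraries was 76.6, 113 and 93.1 CPM in Slc1a3, 31.9, 45.8 and 22.2 CPM in Aspm, and 38.0 and 30.02 CPM in K14 (adjusted p = 0.0495). The Slc1a3 libraries did not overlap the others, and this call was lost in 9 of 16 alternatives. In tail, Egr1 was instead highest in Aspm, at 94.0 and 51.0 CPM in labelled and 130.5 and 64.5 CPM in total libraries, with no call.

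Zc3h12a, which encodes the endoribonuclease Regnase-1 that degrades inflammatory and early response transcripts, gave the firmest back difference. In labelled libraries it was 49.3, 42.1 and 43.5 CPM in Slc1a3, 22.5, 15.8 and 22.6 CPM in Aspm, and 22.7 and 24.02 CPM in K14 (edgeR F test, adjusted p = 0.00611), and the call held in 16 of 16 alternatives. Slc1a3 exceeded Aspm by 1.15 (SE 0.20, edgeR adjusted p = 0.00864) and K14 by 0.95 (SE 0.22, adjusted p = 0.0243) on the log2 scale, with no overlap. In total libraries the F test did not pass (adjusted p = 0.148).

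In back total libraries the chaperone gene Dnajb1 was 151, 145 and 149 CPM in Slc1a3, 177, 176 and 179 CPM in Aspm, and 250 and 206 CPM in K14 (edgeR F test, adjusted p = 0.0209), and Slc1a3 lay below K14 (-0.62, adjusted p = 0.00647). The lines did not overlap, and the labelled libraries kept that order (167, 150 and 162, then 187, 185 and 198, then 243 and 202 CPM) without passing (adjusted p = 0.0940). Myc, a growth factor-induced regulator of proliferation, was 76.2, 81.0 and 85.3 CPM in Slc1a3, 100.4, 98.6 and 106 CPM in Aspm, and 70.3 and 72.0 CPM in K14 (adjusted p = 0.0349). The Aspm libraries were the highest for Myc and the lowest for Nr4a1 and Fosb. The count of 4 in back total libraries was 7 without Slc1a3 replicate 1, 2 without Aspm replicate 1 or 4, 1 without K14 replicate 1 or 4 (the lone K14 library assumed to vary like other groups), 0 without all replicate 4 libraries, and 3 without Slc1a3 replicate 4 alone.

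In tail labelled cells the Slc1a3 line had the lowest Jun and Dusp1. Jun, the core AP-1 subunit, was 25.7 and 22.4 CPM in Slc1a3, 85.9 and 74.1 CPM in Aspm, and 104 and 54.7 CPM in Dlx1 (edgeR F test, adjusted p = 0.00910). Slc1a3 lay below Aspm (-1.73, adjusted p = 0.0117) and Dlx1 (-1.72, adjusted p = 0.00558) with no overlap. Dusp1 was 10.2 and 14.4 CPM in Slc1a3, 54.2 and 40.8 CPM in Aspm, and 26.2 and 20.9 CPM in Dlx1 (edgeR F test, adjusted p = 0.000982), and the lines did not overlap. Total libraries had the same order of Slc1a3 lowest for Jun (35.8 and 38.7 CPM, against 107 and 89.2 CPM in Aspm and 135 and 69.3 CPM in Dlx1) without passing (adjusted p = 0.0731). The Dusp1 call held in 14 of 14 alternatives and the Jun call in 12; leaving out either Slc1a3 labelled library left 1 member called, Dusp1.

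**Figure D4:**
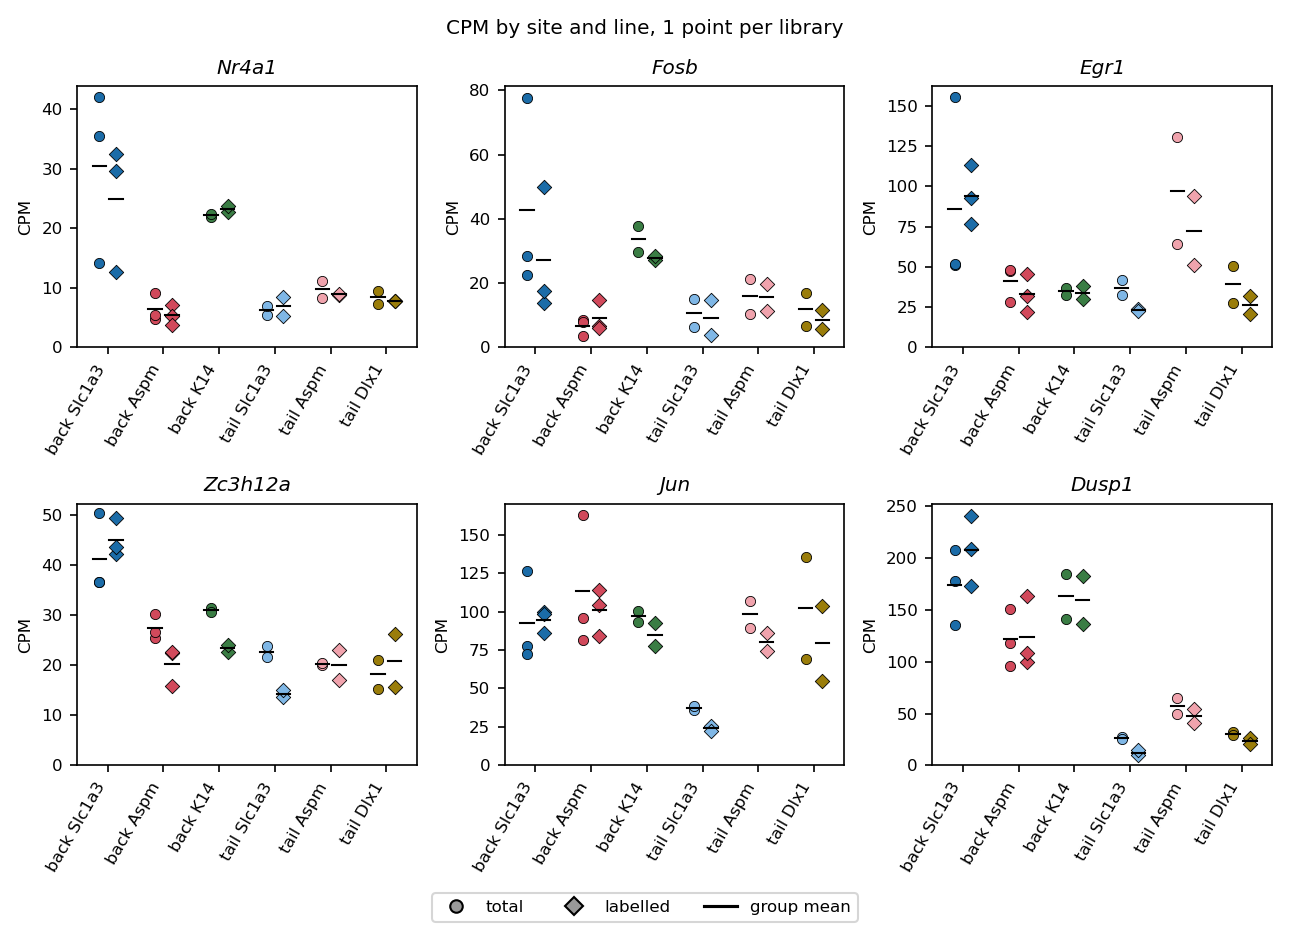
CPM (y axis) by site and line (x axis) for 6 genes, with 1 point per library, circles for total and diamonds for labelled libraries, and a bar at each group mean. Nr4a1 and Fosb are lowest in back Aspm, labelled Zc3h12a is highest in back Slc1a3, and Jun and Dusp1 are lowest in tail Slc1a3.

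Tail and back were compared over the Slc1a3 and Aspm lines, which were sequenced at both sites. The contrast averages these lines, which went opposite ways for some members. Of the 43 members, 20 passed in total libraries, 6 higher and 14 lower in tail, against 46.2% of all genes tested (22.5% higher, 23.7% lower). In labelled libraries 23 passed, 6 higher and 17 lower, against 50.0% of all genes (23.3% higher, 26.8% lower). The members called were thus close to the background in number, with more of them lower than higher. Their median log2 difference was -0.38 in total and -0.54 in labelled libraries, against -0.03 and -0.08 for all genes, and scaling to library totals moved the last value to -0.18. Fibroblast marker sums, given above, separated the sites in the same libraries; their part in these differences was not tested.

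Among AP-1 genes 3 of 8 were lower in tail in total libraries (Fos, Jun, Atf3) and 4 of 8 in labelled libraries (Fosl2 in addition), and none was higher. Atf3 ranged from 22.7 to 68.5 CPM (median 37.2) in the 16 back libraries and from 2.69 to 14.9 CPM (median 8.31) in the 12 tail libraries, with no overlap, a log2 difference of -2.28 in total (SE 0.41, edgeR adjusted p = 1.006e-04) and -2.24 in labelled libraries (adjusted p = 1.025e-04). Jun was lower, at -0.76 in total and -1.15 in labelled libraries, the low tail values being those of the Slc1a3 line above. Fos was lower at -1.01 (SE 0.36, edgeR adjusted p = 0.0281) and -1.0 (adjusted p = 0.0266), but the sites overlapped and the calls were lost in 8 and 7 of 18 alternatives. Mean Fos was lower in tail in the Slc1a3 line only. In total libraries it was 59.72 CPM in back and 13.15 CPM in tail in Slc1a3, but 26.5 and 30.01 CPM in Aspm. Labelled libraries of these lines parted in the same way.

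Among the EGR, NR4A and KLF factors the clearest difference was Klf6, a zinc finger factor of injury responses, at 160 to 243 CPM (median 187) in back and 59.5 to 114 CPM (median 79.2) in tail, without overlap. It was lower in tail by -1.39 in total (SE 0.11, edgeR adjusted p = 5.957e-10) and -1.48 in labelled libraries (adjusted p = 1.84e-10). Myc ran the other way, from 70.3 to 106 CPM in back and 107 to 149 CPM in tail (0.43 and 0.38 on the log2 scale, both passing). Klf4 was 316 to 634 CPM (median 524) in back and 481 to 738 CPM (median 596) in tail, and passed in total (0.28, edgeR adjusted p = 0.0491) but not in labelled libraries. That Klf4 call was lost in 13 of 18 alternatives, among them the fit without back Slc1a3 total replicate 4 (0.20, adjusted p = 0.100). Nr4a1 passed in total (-0.84, edgeR adjusted p = 0.0198) and not in labelled libraries, where Egr3 and Nr4a3 were lower. The Nr4a1 call was lost in 7 of 18 alternatives and the Nr4a3 call in 10, while the Egr3 call held in all 18. Egr3 and Nr4a1 were lower in tail in the Slc1a3 line only. Mean labelled Egr3 was 14.7 CPM in back and 2.35 CPM in tail in Slc1a3, but 5.30 and 6.02 CPM in Aspm. Mean Nr4a1 in total libraries was 30.5 CPM in back and 6.24 CPM in tail in Slc1a3, but 6.45 and 9.73 CPM in Aspm. Egr1 overlapped widely, at 22.2 to 156 CPM in back and 21.1 to 130.5 CPM in tail, and passed in neither (0.01 and -0.45). Its lines went opposite ways in total libraries, with means of 86.2 CPM in back and 37.2 CPM in tail in Slc1a3. In Aspm these means were 41.4 and 97.5 CPM.

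The growth-arrest group held the largest rise. Ier3 was 6.11 to 13.3 CPM (median 7.37) in back and 36.7 to 85.8 CPM (median 52.7) in tail, a log2 difference of 2.88 in total (SE 0.19, edgeR adjusted p = 1.493e-11) and 2.71 in labelled libraries (adjusted p = 3.614e-11). Gadd45b, a stress sensor acting on MAP kinase signalling, was 11.6 to 23.3 CPM (median 16.9) in back and 26.8 to 41.1 CPM (median 31.9) in tail (0.99 and 1.21). Btg2, an antiproliferative gene that promotes mRNA deadenylation, was 36.1 to 63.6 CPM (median 49.8) in back and 12.9 to 22.1 CPM (median 19.8) in tail (-1.30 and -1.43). The 3 genes separated all back from all tail libraries, and all 6 of these tests passed. Rhob, a stress-induced small GTPase, was lower in tail (-0.53 and -0.73, both passing) with overlap, at 40.4 to 67.3 CPM in back and 27.4 to 45.6 CPM in tail.

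Of the 10 feedback inhibitors 5 were lower and 1 higher in tail in total libraries, and 6 lower and 1 higher in labelled libraries. Dusp1 was 96.1 to 241 CPM (median 157) in back and 10.2 to 64.6 CPM (median 28.2) in tail, at -1.90 in total (SE 0.18, edgeR adjusted p = 8.693e-09) and -2.73 in labelled libraries (SE 0.19, adjusted p = 3.549e-11). Socs3 was 32.0 to 82.2 CPM (median 66.8) in back and 6.23 to 23.2 CPM (median 11.8) in tail, at -1.83 (SE 0.24) and -2.46 (SE 0.25). Nfkbia was 212 to 422 CPM (median 286) in back and 101 to 184 CPM (median 141) in tail, at -0.92 and -1.20, both passing. All 3 separated the sites without overlap. The inhibitors called higher in tail were the ERK phosphatase Dusp6 in total libraries (0.78) and the MAP kinase phosphatase Dusp2 in labelled libraries (2.18), losing their calls in 4 and 7 of 18 alternatives. The NF-kB inhibitor gene Nfkbiz, lower in total libraries (-0.39, edgeR adjusted p = 0.0233), was at -0.29 (adjusted p = 0.0614) without back Slc1a3 replicate 4. In Aspm total libraries Nfkbiz was 78.4, 74.9 and 67.7 CPM in back and 76.7 and 74.9 CPM in tail. Zc3h12a was lower in both populations (-0.65 and -0.83). In labelled libraries of the Aspm line, however, it was 22.5, 15.8 and 22.6 CPM in back and 22.9 and 17.0 CPM in tail. Zfp36, which binds AU-rich mRNAs and promotes their decay, was -0.38 in total libraries, which did not pass. It was -0.69 in labelled libraries (edgeR adjusted p = 0.00804), and its sites overlapped.

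Ccn1 was 23.4 to 63.0 CPM (median 43.3) in back and 7.15 to 19.6 CPM (median 10.2) in tail, without overlap (-1.65, SE 0.24, in total and -1.91, SE 0.25, in labelled libraries, both passing). Its relative Ccn2 passed in neither population. Sgk1 was 112 to 250 CPM (median 167) in back and 46.1 to 161 CPM (median 108) in tail, overlapping, at -0.70 and -1.36, both passing. Of the heat shock genes Dnajb1 was slightly higher in tail (0.31 and 0.31, both passing), while Hspa1a, at 38.7 to 80.4 CPM (median 47.3) in back and 38.4 to 50.7 CPM (median 41.9) in tail, passed in neither (-0.12 and -0.11). Over all 28 libraries 10 members separated the sites completely. Atf3, Klf6, Btg2, Dusp1, Socs3, Nfkbia and Ccn1 were lower in tail, and Ier3, Gadd45b and Myc higher. The share of all genes that did so was not counted, so this number is a description only. Of all genes, 46.2% in total and 50.0% in labelled libraries passed between sites.

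**Figure D5:**
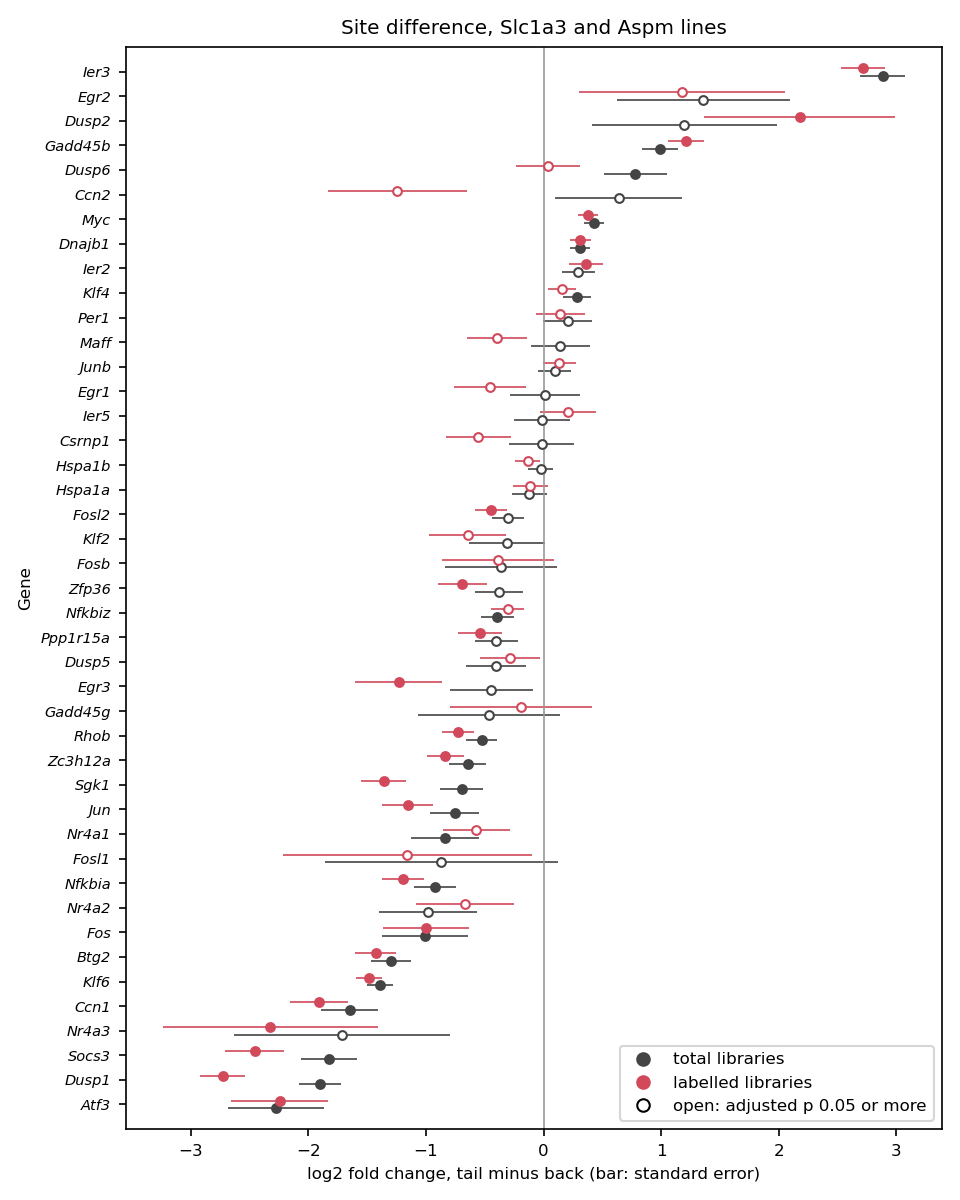
Log2 difference, tail minus back (x axis), with its standard error (bars) for the 43 tested genes (y axis) in total (dark) and labelled (red) libraries of the Slc1a3 and Aspm lines; open points did not pass. Ier3 lies farthest to the right, at 2.88 and 2.71, and Atf3, Dusp1 and Socs3 lie at -1.83 or below on the left.

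Other genes of these pathways were read from separate lists in the same tests, where 46.2% of all genes differed between sites in total and 50.0% in labelled libraries. Of 46 tested further early response genes, 34 differed between sites in total libraries (13 higher and 21 lower in tail) and 35 in labelled libraries (12 and 23). Of 22 upstream factors 12 differed in total libraries (4 higher, 8 lower) and 13 in labelled libraries (4 and 9), Relb, an NF-kB subunit, being lower at -1.19 and -1.23. Of 16 chaperones 9 differed in both (1 higher and 8 lower in total, 2 and 7 in labelled libraries), the small heat shock gene Hspb1 being lower at -0.74 and -0.97. Of 10 glucocorticoid-responsive genes 5 differed in total (3 higher, 2 lower) and 6 in labelled libraries (3 and 3), and of 10 genes of the integrated stress response 7 (4 and 3) and 8 (5 and 3). Whether any list differs from all genes was not tested. Between labelled and total libraries 1 gene of these lists passed in any of the 6 comparisons: Gem, a small GTPase of the early response, in tail Slc1a3 (-2.29, SE 0.49, edgeR adjusted p = 0.0234). Among back lines in total libraries edgeR called 3 further early response genes, 1 upstream factor, 4 chaperones, 1 glucocorticoid-responsive gene and 2 genes of the integrated stress response, against 3.57% of all genes.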

How the data were processed

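The authors deposited 1 table of whole-number counts per gene for each library. Per the submitters' processing notes, Trim Galore 0.6.0, cutadapt, FastQC, STAR 2.7.0e and DESeq2 1.26.0 were used with GRCm38/mm10; the counting tool, annotation and strand setting are not given in the sources used here. The kit was non-directional, per the labels' protocols.

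Counts were tested with edgeR 4.0.16 (R 4.3.3): TMM scaling, filterByExpr with a minimum count of 10, 1 mean for each of 12 groups over all 28 libraries, glmQLFit and glmQLFTest, and Benjamini-Hochberg adjustment over 17493 genes, called under 0.05. CPM use effective library sizes, and pair deviations log2 CPM with a prior count of 2. Gene positions and exonic lengths came from GENCODE M21, which matched all 55536 identifiers. A labelled and a total library were paired by number within a line and site, which the labels do not state. Every pair's deviations correlated at 0.180 or more across genes, a level that unrelated libraries also reached. DESeq2 1.42.0, limma-voom (limma 3.58.1), other scaling, no filter, pair or number blocks and left-out libraries were alternatives. Totals of 7738262 to 37670589 counts set the precision.

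The members and all lists were chosen with earlier results of these data known, so no list here is independent evidence. Named throughout were the 12 members with the lowest adjusted p among those passing in any of 12 comparisons, and Fos, Egr1, Jun, Atf3, Nr4a1, Dusp1, Klf4, Zfp36, Hspa1a and Socs3; others were singled out after their values were seen. On simulated counts, the tail Slc1a3 contrast recovered 1, 18, 46 and 48 of 50 genes changed 1.5, 2, 4 and 8-fold, so most changes of 2-fold or less were missed there.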

Additional observations from a re-analysis of the deposited data

How the results depend on the processing

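No called result that has a direction reversed it in the alternatives run; the tests among lines have none. The site counts kept their size, at 16 to 22 members in total and 17 to 26 in labelled libraries. With the pair as a replicate block, back K14 had 1 member called between labelled and total cells, tail Slc1a3 5, tail Aspm 1 and tail Dlx1 2. Without the back Slc1a3 replicate 4 pair the blocked counts were 1, 8, 1 and 2, and no other member count changed. Of all genes the block called 18, 261, 6 and 81 in these comparisons, and 39, 527, 41 and 213 without that pair. Without a low-count filter the member counts were 1 in back Aspm, 1 in back K14, 5 in tail Slc1a3, 1 in tail Aspm and 1 in tail Dlx1. Of 33440 genes, 27, 42, 276, 26 and 95 were called there. For tail Slc1a3, DESeq2 gave 2, limma-voom 0, the fit without back Slc1a3 total replicate 4 gave 2, without all replicate 4 libraries 0, and with the compared groups alone 2 (tail Aspm 1); leaving out each library gave 0 in every case. Among lines, back total had 11 members without a filter, 0 without all replicate 4 libraries, 0 with the compared groups alone, and 1 to 7 with 1 library left out; back labelled had 6 with DESeq2, 9 without a filter and 1 without all replicate 4 libraries. Tail total had 2 with library totals, 5 with DESeq2, 1 with limma-voom, 7 without a filter, 4 without back Slc1a3 total replicate 4, 1 without all replicate 4 libraries, 3 with the replicate number as a block across lines, and 5 with the compared groups alone. Tail labelled had 4, 6, 10, 5, 5 and 8 with library totals, DESeq2, no filter, without back Slc1a3 total replicate 4, with the number block and with the compared groups alone, and 1 to 2 with 1 library left out. The median pair r was 0.651 without all replicate 4 libraries and 0.549 to 0.637 with 1 pair left out; the median SD of log2 CPM was 0.348 without the back Slc1a3 replicate 4 pair, 0.350 without all replicate 4 libraries and 0.330 to 0.398 with 1 pair left out. The number of all genes called moved with these settings too. Among tail labelled lines it was 386 of 17493 in the main fit, with 2 members, and 1203 of 33440 without a filter, with 10. With the compared groups alone it was 1499 of 14610, with 8 members. Among back total lines it was 624 of 17493, with 4 members, and 1718 of 33440 without a filter, with 11. Shifts in the member counts are thus not particular to the members. The cause of these shifts was not tested. Groups of 2 or 3 libraries limit the precision.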
